A study of Mus musculus with 10 samples.

Results

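Nodal, Lefty and Smad2 pathway genes were followed in mouse embryonic stem cells after loss of the histone acetyltransferase gene Mof and during and after treatment with etomoxir. The 9 genes are Lefty1, Lefty2, Nodal, Tdgf1, Gdf3, Smad7, Foxh1, Acvr1b and Acvr2b, taken by symbol from the gene-level count table of 49624 gene names. Each of the 9 had a row of its own, shared with no other gene, and all 9 passed the filter on low values (at least 10 normalised counts in at least 2 libraries). The genes were proposed with earlier results of these libraries in view and so were in part selected on their own levels and log2 differences in these contrasts. These are therefore given as a description, with no p-value for any of the 9; counts of them past the test's threshold are printed only beside the share of all rows. Tests are given for other genes of the pathway, whose lists were also written with earlier results of these data known.

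All cells were blastocyst-derived embryonic stem cells grown in 2i/LIF, a medium in which a MEK inhibitor (PD0325901), a GSK3 inhibitor (CHIR99021) and the cytokine LIF hold the cells in a naive state. In the first experiment the line carried Mof fl/fl and Cre-ER TM on C57BL/6J, and wild type (WT) cells were compared with Mof-KO (KO) cells. The protocol names ethanol or 4-hydroxytamoxifen at 100 nM for 3 days as the treatments, without saying in so many words which group received which, and no group with 4-hydroxytamoxifen and intact Mof was analysed here. In the second experiment the E14 line (E14tg2a) received water (Control) or etomoxir (ETO), an inhibitor of mitochondrial fatty acid oxidation, for 4 days, or was released from etomoxir for another 4 days (Released). Each of the 5 groups had 2 libraries of total RNA, called biological duplicates, and no source says how the duplicate cultures were kept apart. Each experiment used 1 line, so a difference between WT and Control cannot be told apart from line, strain and culture. Control is listed with 4 days of treatment, and Released with 4 days of treatment and 4 of release. No untreated group is listed for the later time. Differences between Released and Control therefore cannot be told apart from time in culture.

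The values are the deposited normalised counts, which mostly behave like read counts divided by 1 factor per library. Library totals ran from 10562067 to 13326172 normalised counts, and the smallest step between values gave an estimated 9783467 to 16778540 reads per library. Foxh1 was an exception among the 9 genes. Its values were whole multiples of the step, within 0.1, in 3 of 10 libraries, and those of every other member in 10 of 10. The cause was not tested. In Mof-KO libraries the targeted gene, listed as Kat8, stood at 222 and 205 normalised counts against 433 and 357 in WT, a log2 difference of -0.88 ± 0.11 (standard error, SE; limma adjusted p = 3.64e-05). The embryonic stem cell marker Pou5f1 was abundant in every library, between 525 and 1048 FPKM (fragments scaled to transcript length and library size). Dppa3, another listed marker, was much lower in the E14 line, at 3.00 to 9.88 FPKM. Its WT and KO libraries lay between 40.3 and 61.6 FPKM. Of 9 fibroblast or feeder markers, Col1a2, Col3a1, Postn, Dcn, Lum and Acta2 were under 1 FPKM in all groups. The others were Fn1 (172 to 337 FPKM over the libraries), Thy1 (0.737 to 4.16 FPKM) and Col1a1, which had 39.6 and 40.5 normalised counts in Control and 152 and 154 in ETO.

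Nodal is a secreted factor of the TGF-beta family. With Gdf3 and related ligands it binds activin receptors (Acvr1b, type I, and Acvr2b, type II) together with the co-receptor Tdgf1 (Cripto), and the receptors phosphorylate Smad2 and Smad3. These enter the nucleus with Smad4, where Foxh1 helps to place them on DNA. Lefty1 and Lefty2 are targets of the pathway and secreted antagonists of Nodal, and Smad7 is an intracellular inhibitor that the pathway also induces, so the genes form feedback loops in early embryos and in embryonic stem cells.

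The Lefty genes lie 35918 bases apart on chromosome 1 (GENCODE annotation of GRCm38, the assembly of mm10), Lefty2 at chr1:180893108-180899103 and Lefty1 at chr1:180935022-180938400, both on the plus strand. They are near copies, which bears on how single-end reads are assigned. Of 1104 coding bases in each, 1014 were identical (91.85%). The longest run that both copies share was 140 bases, and a read inside it cannot be placed on one copy. Of all 50-base windows of the coding sequence, 26.64% were identical in the other copy. How reads that fit both copies were counted is not given in the sources used here, so the split between the Lefty genes is uncertain to that extent.

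Promoter windows of 250 bases before the RefSeq start site (GRCm38.p6) were read for 4 of the 9 genes, and 2 are shown because Tdgf1 and Nodal stood on opposite sides of Control in ETO. No window was found for Lefty1, Lefty2, Gdf3, Smad7 or Foxh1. CAGAC, the short SMAD element, is in capitals where present.
Tdgf1 (chr9:110946159-110946408, minus strand): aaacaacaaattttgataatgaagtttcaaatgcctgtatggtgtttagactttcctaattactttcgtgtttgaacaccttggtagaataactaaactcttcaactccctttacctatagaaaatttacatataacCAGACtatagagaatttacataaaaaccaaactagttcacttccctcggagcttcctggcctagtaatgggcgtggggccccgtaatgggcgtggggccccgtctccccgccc
Nodal (chr10:61417722-61417971, plus strand): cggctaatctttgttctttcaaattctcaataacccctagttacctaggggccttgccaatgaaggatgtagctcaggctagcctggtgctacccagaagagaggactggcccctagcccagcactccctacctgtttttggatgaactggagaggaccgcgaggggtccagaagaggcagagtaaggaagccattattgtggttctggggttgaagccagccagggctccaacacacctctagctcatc
The Tdgf1 window held CAGAC 113 bases before the start, and the Nodal window held none on either strand. Of the other windows read, Acvr2b held CAGAC on the reverse strand 233 bases before the start, and Acvr1b held none. CAGAC occurred in 42.19% of 32851 such windows, searched on both strands. The other motifs searched on both strands, AATCCACA (FOXH1), GTCTAGAC (a SMAD palindrome), CTTTGAT (TCF/LEF), ATTTGCAT (OCT4) and CATTGT (SOX2), were not found in the Tdgf1, Nodal, Acvr1b or Acvr2b windows. They occurred in 0.7184%, 0.1674%, 3.205%, 1.601% and 10.69% of all windows. A match describes letters in a window and shows no binding, and its relation to the levels was not tested.

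Both Lefty genes were nearly silent in etomoxir-treated cells and were present again after release. The Control libraries held 270 and 255 normalised counts of Lefty1, the ETO libraries 4.94 and 4.15, and the Released libraries 62.0 and 55.1. The ETO libraries lay far below Control and Released without overlap, and each rested on 5 reads (exact Poisson 95% intervals 1.60 to 11.5 and 1.35 to 9.69 normalised counts, which cover counting error only). The fitted log2 difference was -5.57 ± 0.27 (SE) for ETO against Control and 3.43 ± 0.27 for Released against ETO. The mean in ETO was 1.73% of the Control mean, and the mean in Released was 22.3% of it.

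For Lefty2 the Control libraries held 761 and 737 normalised counts, the ETO libraries 10.9 and 5.81, and the Released libraries 461 and 451. The ETO libraries held 11 and 7 reads. The log2 difference was -6.38 ± 0.21 for ETO against Control, the lowest of all 16056 tested rows, and the Lefty1 difference ranked 2 from the bottom. For Released against ETO the Lefty2 difference of 5.67 ± 0.21 was the highest of all tested rows, and Lefty1 ranked 25 from the top. Lefty2 in Released stood at 60.9% of the Control mean, log2 -0.71 ± 0.21, whereas Lefty1 was lower at -2.15 ± 0.27. The ETO libraries enter both contrasts and the Control libraries enter both contrasts against Control, so these differences are not independent of each other. In bulk RNA, fewer cells with a transcript and less transcript per cell cannot be told apart.

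After Mof loss the copies differed. Lefty1 had 13.0 and 8.84 normalised counts in WT and 49.8 and 65.5 in KO, that is 14 and 9 reads against 37 and 50. The KO libraries lay above both WT libraries, and the log2 difference was 2.31 ± 0.27, rank 61 from the top of 16056 rows. It ranged from 1.60 to 2.56 over the processing alternatives. Lefty2 had 153 and 172 normalised counts in WT and 170 and 134 in KO. These overlapped, the log2 difference was -0.11 ± 0.21, and its sign changed between alternatives (-0.28 to 0.07).

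**Figure D1:**
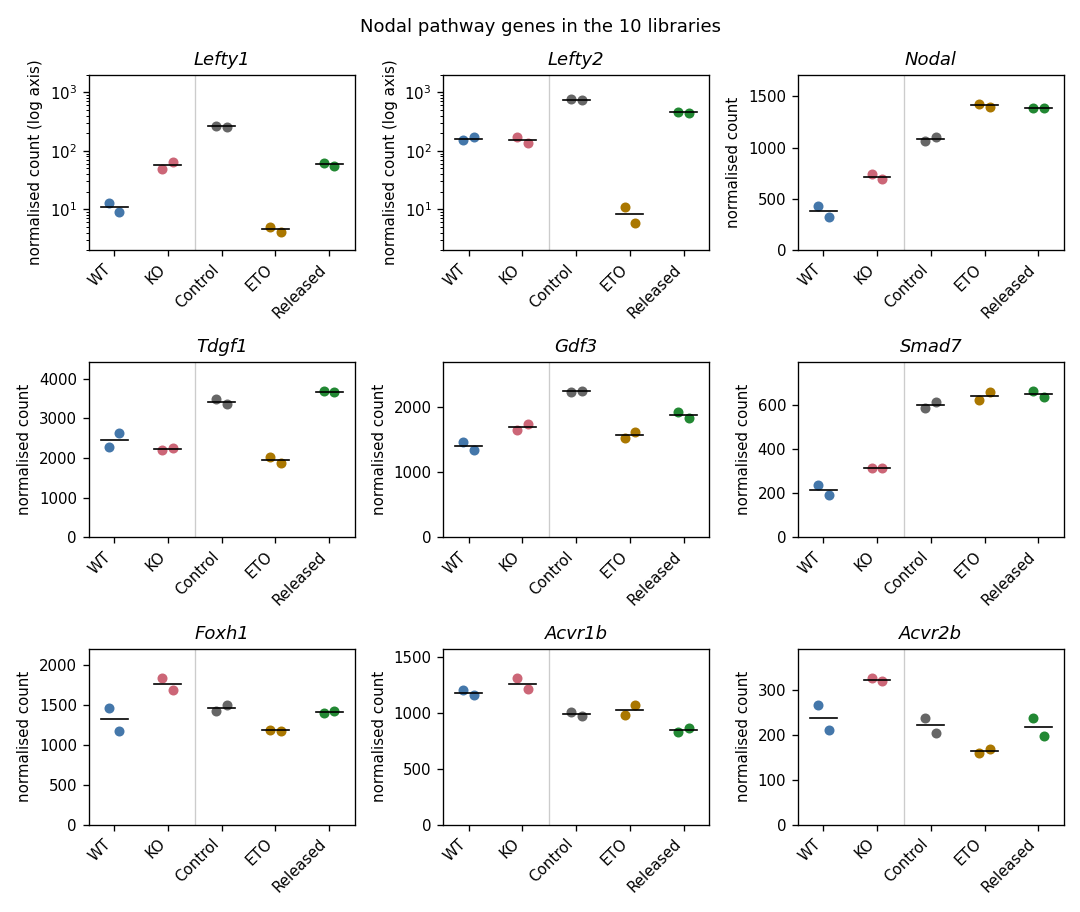
Normalised counts of the 9 genes (y axes; log scale for Lefty1 and Lefty2, linear from 0 for the others) in each of the 10 libraries (points), by group on the x axis, with the group mean as a line. Lefty1 and Lefty2 lie at 4.15 to 10.9 in the ETO libraries, while Nodal at 1425 and 1401 is above its Control libraries.

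Nodal, the ligand, was higher in KO than in WT and higher in ETO than in Control. It had 429 and 326 normalised counts in WT and 739 and 694 in KO, without overlap and with a log2 difference of 0.93 ± 0.10. In the E14 line the Control libraries had 1062 and 1099, below 1390 and 1386 (Released) and 1425 and 1401 (ETO). The ETO and Released libraries were all above Control, with log2 differences of 0.39 ± 0.10 and 0.36 ± 0.10. Released differed from ETO by -0.03 ± 0.10, less than 1 SE, whereas both Lefty genes in Released lay between ETO and Control.

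Gdf3, a related ligand that can signal through the same receptors, had 1467 and 1344 normalised counts in WT and 1644 and 1738 in KO, a log2 difference of 0.27 ± 0.07. Its Control values of 2231 and 2238 were above 1525 and 1615 in ETO and 1926 and 1834 in Released. None of these groups overlapped. Relative to Control the log2 difference was -0.51 ± 0.07 in ETO and -0.25 ± 0.07 in Released, and Released was 0.26 ± 0.07 above ETO.

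Set against Nodal in the same library, the antagonists spanned a wide range. In Control there were 0.232 to 0.254 Lefty1 and 0.670 to 0.716 Lefty2 normalised counts per Nodal count. In ETO the ratios were 0.00296 to 0.00347 for Lefty1 and 0.00415 to 0.00763 for Lefty2. In Released they were 0.0397 to 0.0446 and 0.325 to 0.332. The ratios in Released were thus above ETO and below Control for both genes. In WT the Lefty1 ratio was 0.0271 to 0.0302 and in KO 0.0674 to 0.0943, higher in KO. The Lefty2 ratio went the other way, 0.356 to 0.527 in WT and 0.192 to 0.230 in KO, since Nodal was higher in KO and Lefty2 was not. These ratios compare counts, not molecules, as they are not divided by transcript length.

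**Figure D2:**
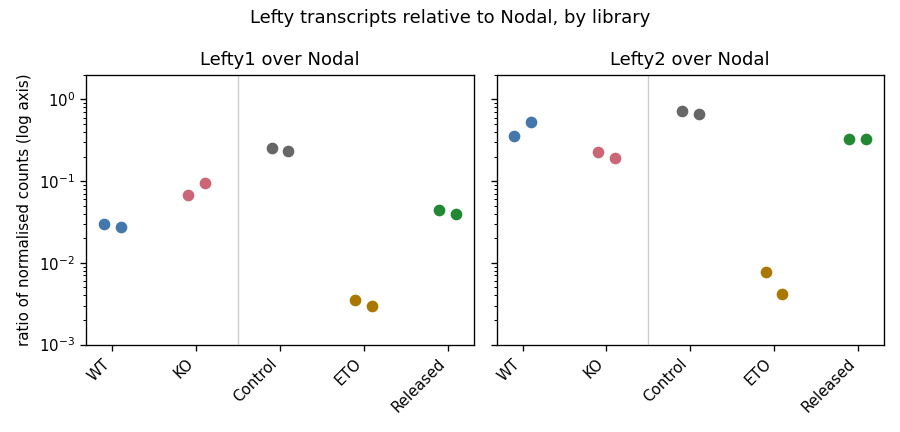
Lefty1 and Lefty2 normalised counts divided by Nodal normalised counts in the same library (y axis, log scale), 1 point per library, by group on the x axis. For Lefty2 the ETO libraries lie at 0.00415 to 0.00763 and the Control libraries at 0.670 to 0.716.

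Tdgf1, the co-receptor, had the highest level per transcript length of the 9 genes in every group, 81.3 to 154 FPKM as group means. Normalised counts were 3475 and 3365 with water, 2022 and 1881 with etomoxir, and 3680 and 3662 after release. ETO was lower than both without overlap, log2 -0.81 ± 0.07 against Control, and Released was 0.91 ± 0.07 above ETO. WT had 2286 and 2638 and KO 2208 and 2255, a log2 difference of -0.14 ± 0.07. A processed pseudogene, Tdgf1-ps1 (chr16:3730510-3731022, plus strand), matched the Tdgf1 coding sequence at 506 of 512 aligned bases (98.83%). It was listed at 856 and 901 normalised counts in Control and 510 and 536 in ETO, and Tdgf1 over Tdgf1-ps1 lay between 3.506 and 5.705 by normalised counts. By FPKM, which divides by length, the ratio was 0.978 to 1.148 in WT and KO and 0.686 to 0.796 in Control, ETO and Released, where the pseudogene row stood above Tdgf1. How reads that fit both were split is not given in the sources used here, so the level of Tdgf1 is uncertain. The direction in ETO was the same in both rows. This is no separate support, since reads of one may be listed under the other.

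The receptors differed less between groups than the Lefty genes did. Acvr1b (Alk4, the type I receptor) had 1198 and 1155 normalised counts in WT and 1306 and 1211 in KO, and 1003 and 967 in Control against 981 and 1066 in ETO. The KO and ETO differences of 0.10 ± 0.07 and 0.05 ± 0.07 changed sign between alternatives. Released, at 828 and 866, was below ETO at log2 -0.27 ± 0.07 and below Control at -0.22 ± 0.07. Acvr2b (the type II receptor) had 267 and 211 in WT and 327 and 321 in KO, a log2 difference of 0.44 ± 0.14. With water it had 239 and 204, with etomoxir 160 and 169, and after release 239 and 198. The ETO libraries were lowest by counts, log2 -0.42 ± 0.14, but the FPKM table gave 0.06 for the same contrast, so the direction depends on the table. A predicted gene, Gm47320, overlaps Acvr2b on the opposite strand, and whether counting used strand is not given in the sources used here.

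Foxh1, the DNA-binding partner of Smad2, had 1467 and 1172 normalised counts in WT and 1832 and 1691 in KO, log2 0.42 ± 0.09. In the E14 line its values were 1422 and 1499 (Control), 1191 and 1177 (ETO) and 1404 and 1423 (Released). ETO was below both others, log2 -0.30 ± 0.09 against Control, while Released overlapped Control. Smad7, the intracellular inhibitor, had 236 and 189 in WT and 313 and 314 in KO, log2 0.57 ± 0.10. Its Control values of 587 and 611, ETO values of 622 and 658 and Released values of 661 and 636 were close, with differences from Control of 0.10 ± 0.10 and 0.11 ± 0.10. Unlike the Lefty genes, Smad7 was not lower in ETO than in Control.

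**Figure D3:**
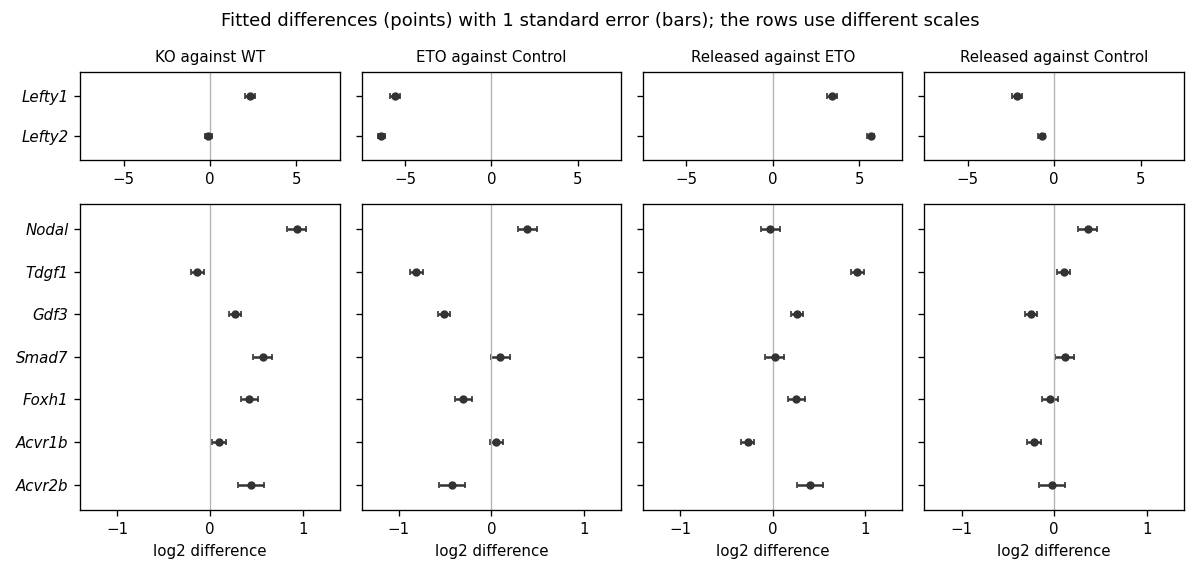
Fitted log2 differences (x axis) with 1 standard error for each of the 9 genes (y axis) in 4 comparisons. The upper panels hold Lefty1 and Lefty2 on a wider scale than the lower panels, and Lefty2 lies at -6.38 for ETO against Control and at 5.67 for Released against ETO.

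Counted over the 9 genes, KO against WT had 6 higher and 0 lower at a limma adjusted p under 0.05 (0 lower also at an unadjusted p under 0.05), where 37.9% of all tested rows were called (24.6% higher, 13.3% lower). The groups did not overlap for 8 genes, where 64.6% of all rows did not. For ETO against Control 1 was higher and 6 were lower, where 60.8% of rows were called (26.8% higher and 34.0% lower), and 8 genes did not overlap, where 81.6% of rows did not. In Released compared with ETO 6 were higher and 1 lower, where 57.7% of rows were called (33.1% higher and 24.6% lower), and 8 did not overlap, where 81.0% of rows did not. In Released compared with Control 1 was higher and 3 were lower, where 12.5% of rows were called (7.03% higher and 5.51% lower), and 7 did not overlap, where 61.7% of rows did not. Nothing is read from these counts, since the same contrasts were known when the genes were chosen. The median log2 difference of the 9 genes was 0.42 for KO against WT (all tested rows 0.08) and -0.42 for ETO against Control (all tested rows -0.09).

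Divided by transcript length, the genes could be ranked against each other within a group. In Control the mean levels were 143 FPKM for Tdgf1, 80.5 for Gdf3, 56.4 for Foxh1, 38.3 for Nodal, 22.1 for Lefty2, 18.1 for Smad7, 16.5 for Acvr1b, 12.8 for Lefty1 and 4.89 for Acvr2b. In ETO the means for Lefty1 (0.272 FPKM) and Lefty2 (0.286 FPKM) were the lowest of the 9, below Acvr2b at 5.13 FPKM. In WT Lefty1 was lowest at 0.842 FPKM, and its libraries ranked oppositely in the FPKM and count tables, so its WT level is poorly fixed.

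Between WT and Control, the reference groups of the 2 lines, the Lefty genes had the largest ratios of the 9. Control over WT, as a ratio of means, was 24.1 for Lefty1, 4.62 for Lefty2, 2.86 for Nodal and 2.82 for Smad7, all without overlap. It was 1.59 for Gdf3 and 1.39 for Tdgf1, also without overlap. Acvr1b was at 0.837, without overlap, and Foxh1 (1.11) and Acvr2b (0.926) overlapped. In order of level, Lefty1 ran ETO, WT, KO, Released, Control, with KO (57.6 ± 11.1; SD, n = 2) and Released (58.5 ± 4.88) overlapping. Lefty2 ran ETO, KO, WT, Released, Control, with KO and WT overlapping. Nodal ran WT, KO, Control, Released, ETO, with no neighbours overlapping.

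Smad2, Smad3 and Smad4, the signal carriers, were tested in the same fit. Each rose in KO, Smad2 by 0.41 ± 0.07 (limma adjusted p = 0.000521), Smad3 by 0.43 ± 0.09 (adjusted p = 0.0011) and Smad4 by 0.28 ± 0.06 (adjusted p = 0.0025). Smad2 had 885 and 1021 normalised counts in WT and 1269 and 1266 in KO. The Smad4 call was lost with total-signal scaling and the Smad3 and Smad4 calls were lost in the FPKM table. In ETO against Control none passed the test, with 0.04 ± 0.07 for Smad2 (adjusted p = 0.684), -0.12 ± 0.09 for Smad3 (adjusted p = 0.227) and 0.06 ± 0.06 for Smad4 (adjusted p = 0.382).

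Beside the 9, 62 symbols of the Nodal and activin pathway were listed, without the BMP branch; Ccn2 and Ctgf among them name the same gene, which the table lists as Ctgf. Of the symbols 61 had a row and 50 could be tested. In KO against WT 24 rose and 1 fell (37.9% of all rows called), with a median log2 difference of 0.32 against 0.08 over all rows. With total-signal scaling 16 were higher and 6 lower, and FPKM values called 9 higher and 1 lower. Of 14 inhibitors of Smad2/3 signalling 10 rose and 0 fell by limma (1 was lower at an unadjusted p under 0.05, Smad6). Those that rose included the corepressor Skil (0.49 ± 0.10, adjusted p = 0.001), the ubiquitin ligase Smurf1 (0.54 ± 0.10, adjusted p = 0.000552) and the negative feedback gene Pmepa1 (0.61 ± 0.14, adjusted p = 0.00285). By FPKM these calls were lost, with adjusted p = 0.126 for Skil, 0.106 for Smurf1 and 0.122 for Pmepa1. Of 5 tested receptors, 3 rose, among them Tgfbr1 (0.51 ± 0.08, adjusted p = 0.000132) and Tgfbr2 (0.34 ± 0.12, adjusted p = 0.0364). The Tgfbr2 call was lost in 12 alternatives, each other scaling included (adjusted p = 0.105 with TMM). The co-receptor Cfc1, related to Tdgf1, rose by 1.52 ± 0.41 (adjusted p = 0.00859) from 7.40 and 5.64 to 18.8 and 22.3 normalised counts, with adjusted p = 0.0504 without WT replicate 2 and 0.0514 without KO replicate 2. Of the 10 tested other targets 3 rose, Eomes, a T-box factor, by 1.27 ± 0.28 (adjusted p = 0.00341, and 0.0989 by FPKM), Ctgf by 0.74 ± 0.09 (adjusted p = 2.58e-05) and Otx2 by 0.52 ± 0.19 (adjusted p = 0.0398, lost in 11 alternatives).

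In ETO against Control 23 pathway genes rose and 13 fell (60.8% of all rows called), with a median of 0.17 against -0.09. With total-signal scaling these were 27 and 7. The known targets split, with 4 rising and 4 falling of 10 tested. T (Brachyury) had 172 and 193 normalised counts in Control and 7.91 and 7.47 in ETO, a log2 difference of -4.40 ± 0.32 (adjusted p = 1.42e-08). Eomes rose from 77.3 and 95.4 to 536 and 515, by 2.60 ± 0.28 (adjusted p = 4.08e-06). Skil rose by 0.98 ± 0.10 (adjusted p = 3.52e-07) and Pmepa1 by 1.23 ± 0.14 (adjusted p = 1.6e-06).

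Among receptors, Tgfbr2, the TGF-beta type II receptor, rose from 270 and 264 normalised counts in Control to 970 and 1001 in ETO, by 1.88 ± 0.12 (adjusted p = 3.11e-09), and Acvr2a rose by 0.98 ± 0.11 (adjusted p = 1.77e-06). Of ligands and their processing enzymes 5 rose and 2 fell of 8 tested, where 60.8% of all rows were called (26.8% higher and 34.0% lower). The count includes a row that holds Gdf1 with Cers1 (higher) and one that holds Pcsk6 with Gm45213 and Snrpa1 (lower). Neither row can be given to 1 gene. With total-signal scaling the Pcsk6 row had a limma adjusted p = 0.164. Inhbb, the activin B subunit, rose by 1.51 ± 0.33 (adjusted p = 0.000899) and the convertase Furin by 1.07 ± 0.12 (adjusted p = 1.06e-06). Of the other antagonists Fst (follistatin) fell by 1.08 (SE 0.15, adjusted p = 1.43e-05), Dand5 rose by 0.99 ± 0.24 (adjusted p = 0.00186) and Cer1 was at 0 in all libraries, as was Acvr1c. The activin subunit Inhba was at 5.93 and 0.830 in ETO and at 0 elsewhere, and was not tested.

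**Figure D4:**
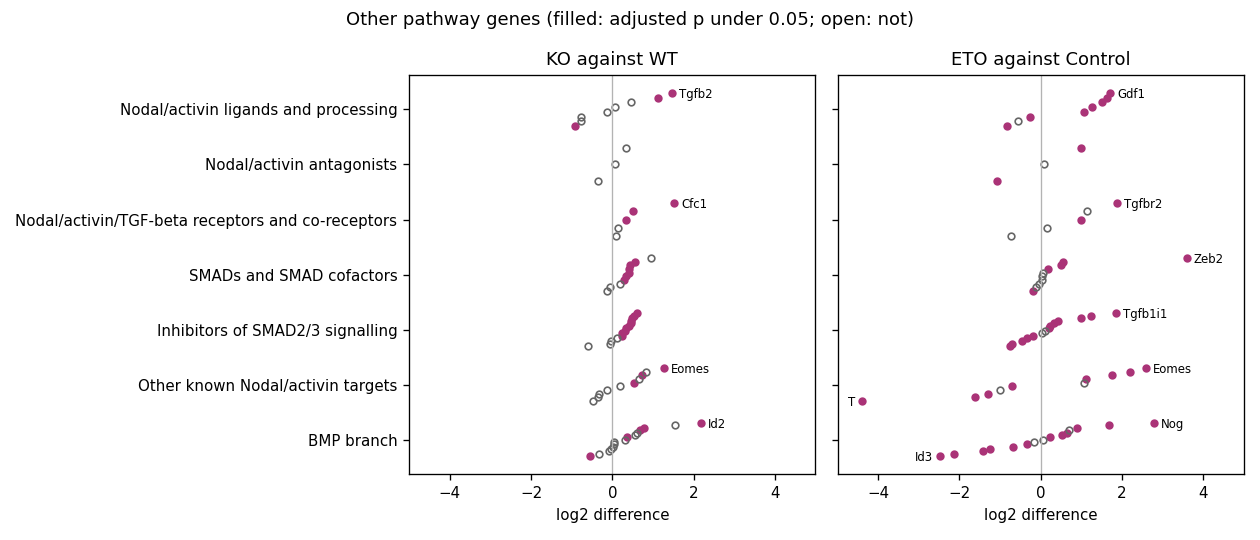
Fitted log2 differences (x axis) of the tested pathway genes in 7 lists (y axis), in KO against WT and in ETO against Control, 1 point per gene, filled where the limma adjusted p was under 0.05 and open where it was not. T lies at -4.40 and Eomes at 2.60 among the targets in ETO.

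After release, compared with ETO, 12 pathway genes rose and 21 fell (57.7% of all rows called), and by FPKM values 9 rose and 11 fell. T rose by 4.51 ± 0.32 (adjusted p = 1.34e-08), Eomes fell by 1.76 (SE 0.28, adjusted p = 0.000142) and Tgfbr2 fell by 1.37 (SE 0.12, adjusted p = 1.27e-07). Against Control 6 were higher and 0 lower by limma (12.5% of all rows called; 3 were lower at an unadjusted p under 0.05), and the FPKM table called 2. They were Pmepa1 (0.98 ± 0.14, adjusted p = 0.000358), Inhbb (1.43 ± 0.33, adjusted p = 0.00979), Nedd4l (0.69 ± 0.08, adjusted p = 8.93e-05), Tgfbr2 (0.51 ± 0.12, adjusted p = 0.0121), Ctgf (0.45 ± 0.09, adjusted p = 0.00491) and Med15 (0.25 ± 0.07, adjusted p = 0.0334). The count was 2 without Control replicate 2 and 3 without either Released replicate.

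The changes after Mof loss and with etomoxir were also compared directly, since those experiments share no library. Of the 50 tested pathway genes 32 differed (18 higher and 14 lower for the KO change minus the ETO change), where 54.5% of all rows did (32.3% higher and 22.2% lower). With TMM scaling the split was 11 and 16, so neither direction leads under every scaling.

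Markers of cell types and states also changed with etomoxir (60.8% of all rows called), but their lists are not separate from the pathway lists. All 5 tested mesendoderm markers (T, Mixl1, Eomes, Gsc and Foxa2) are also among the listed pathway targets. So is Otx2, counted here as a formative or primed marker. Eomes is counted again as a trophectoderm marker and Foxa2 again as a primitive endoderm marker. Of 10 embryonic stem cell markers 9 fell and 1 (Dppa3) rose, and their summed level was 39979 to 42178 normalised counts in ETO and 65377 to 65692 in Control. Of 7 tested trophectoderm markers 6 rose and 1 fell, with a summed level of 6450 to 6846 normalised counts in ETO against 1086 to 1095 in Control. Most of the ETO sum came from the keratins Krt8 (2116 and 2334) and Krt18 (2501 and 2618). In Control these had 238 and 223 and 29.7 and 44.6 normalised counts. Gata3, also on the list, shares its row with 9230102O04Rik. The one that fell was Cdx2, from 2.01 and 1.15 FPKM in Control to 0.193 and 0.243 in ETO. Elf5 was under 1 FPKM in both. Of 6 tested primitive endoderm markers 3 rose and 1 fell: Gata6 went from 11.01 and 14.5 to 129 and 125 normalised counts and Gata4 from 22.0 and 20.8 to 135 and 127. Lama1 went the other way, from 1659 and 1624 in Control to 933 and 1299 in ETO. The primitive endoderm list summed to 1546 to 1892 normalised counts in ETO and 1890 to 1948 in Control, which overlap. Of 8 tested formative or primed epiblast markers 1 rose and 4 fell, and of 5 tested mesendoderm markers 2 rose and 2 fell. In KO against WT 37.9% of all rows were called, and of 8 tested formative or primed markers 5 rose and 1 fell. Cdh2 went from 13.0 and 9.82 to 57.9 and 64.1 normalised counts. The one that fell was Sall2, from 239 and 232 to 163 and 131. The call of Otx2, 1 of those that rose, was lost in 11 alternatives. Of 10 embryonic stem cell markers 4 rose and 2 fell in KO. The mitochondrial rows took 0.761% and 0.588% of the signal in ETO and 3.39% and 3.34% in Control. The part of these changes in the Lefty and pathway values was not tested.

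The rows most like the Lefty genes over the 10 libraries, by the root mean square difference of centred log2 values, were Nkx1-2 (0.890) and Trh (1.01) for Lefty1 and Lin28a (0.825) and Ccdc3 (0.901) for Lefty2. Lin28a, an RNA-binding protein gene, had mean normalised counts of 1320 with water, 55.7 with etomoxir and 782 after release, an ETO level far below both others as for the Lefty genes. The rows most like Nodal were Ptprv (0.129), Adap1 (0.143), Tex19.1 (0.152) and Smad7 (0.158). These smaller values do not show a closer likeness, since the measure grows with the range of the gene. The highest group mean was 3.74 times the lowest for Nodal, 57.7 times for Lefty1 and 89.8 times for Lefty2. Pearson r over the 10 libraries was 0.978 for Nodal with Smad7 and 0.977 for Lefty2 with A2m. Of the other 8 genes, Smad7 alone was among the 5 rows closest to Nodal.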

How the data were processed

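RNA was measured in 10 single-end libraries, 2 per group. Per the submitters' processing notes, reads were handled with TopHat2 2.1.1, SAMtools 1.5 and deepTools on mm10; the program that made the tables and its use of strand are not given in the sources used here. The main table, as deposited by the authors, holds a normalised signal per gene, called normalised counts here: 84.4% to 85.6% of values were whole multiples, within 0.1, of 1 step per library, so no count model was used. A second deposited table gives FPKM. Of 50273 rows 1314 merged several genes, such as the rows that hold Gdf1 with Cers1 and Zeb2 with Mir5129; rows of equal name were summed, and 2 mitochondrial rows at 0 in Released replicate 1 were left out of the tests.

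Values were tested as log2(value + 1) with limma 3.58.1 (R 4.3.3; empirical Bayes with trend and robust fitting, two-sided, Benjamini-Hochberg over 16056 rows of at least 10 in at least 2 libraries, threshold 0.05), with 1 mean per group over all libraries. Fold changes on this scale understate changes of low genes. The fit was tested on simulated data. P-values measure the spread between duplicates, whose Pearson r was 0.9853 to 0.9892 and which differed by more than counting noise in every group. The labels do not say that the replicate numbers pair libraries, and the main fit did not pair them. The correlation of replicate differences was -0.0150 to 0.0812 between groups, which does not settle how the cultures were paired. The 9 genes and all lists were chosen with earlier results of these data known. Genes named are the 9 genes, Smad2, Smad3, Smad4, Inhba, Inhbb, Acvr1c, Acvr2a, Cer1, Skil, Pmepa1, Kat8 and 1 gene that is not reported here, up to 5 called genes of smallest adjusted p per list and comparison, and the 5 single-gene rows most like Lefty1, Lefty2 and Nodal. Alternatives were 2 pseudocounts, no filter, 3 scalings, a fit per experiment, the FPKM table, a replicate block and leaving out each library. Sequences came from GENCODE and RefSeq annotation.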

Additional observations from a re-analysis of the deposited data

Results flagged for a closer look

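For 5 pathway genes outside the 9, the KO change (KO against WT) and the ETO change (ETO against Control) were each called and had opposite signs, and the difference between the changes itself passed the limma test. The experiments use different lines and different perturbations. Values are log2, with the adjusted p of the difference. The row that holds Gdf1 with Cers1 changed by -0.92 in KO and 1.71 in ETO, a difference of -2.64 (adjusted p = 7.1e-06), and its KO call was lost without WT replicate 1 (-0.68, adjusted p = 0.0871) and without KO replicate 2. The KO call of Trim33 was lost by FPKM values, and its ETO call in 8 alternatives. Otx2, a homeobox factor of the epiblast and anterior neural plate, changed by 0.52 and -1.29, a difference of 1.81 (adjusted p = 3.73e-05), and its KO call was lost in 11 alternatives. Trim33, a SMAD cofactor, changed by 0.55 and -0.19, a difference of 0.74 (adjusted p = 1.57e-05). Drap1, which interacts with Foxh1, changed by 0.23 and -0.46, a difference of 0.69 (adjusted p = 0.000181), and its KO call was lost in 13 alternatives. Tgif1, a corepressor, changed by 0.42 and -0.18, a difference of 0.60 (adjusted p = 2.55e-05), and its ETO call was lost in 6 alternatives. The difference between the changes stayed past the threshold with the same sign in all 18 alternatives run for each of the 5 genes. This is no separate support. The genes were picked for opposite changes, so each difference is larger than either change, and the alternatives reuse the same libraries. Over all rows 54.5% had a called difference, and the share of all rows that meets the full rule is not given here.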

How the results depend on the processing

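Of the alternatives for the 9 genes, 611 values moved by less than the spread between duplicates, 72 moved by more and 1 difference past the threshold changed sign, Acvr2b in ETO against Control (-0.42 by counts and 0.063 by FPKM). Counting small differences too, 6 of 36 took both signs: Lefty2 and Acvr1b in KO, Acvr1b and Acvr2b in ETO, Smad7 in Released relative to ETO and Acvr2b in Released relative to Control. Of those for named pathway genes 1658 kept their call, 127 lost it and 1 changed sign, Crebbp in Released against ETO (-0.35, and 0.19 by FPKM). By FPKM, calls over all genes were 2747 for KO against WT (6086 by counts) and 261 for Released against Control (2012 by counts); calls over pathway genes were 10 (25), 20 (33) for Released against ETO, 2 (6) for Released against Control, and 21 (32) when KO and ETO changes were compared. A fit per experiment lowered the KO against WT calls from 6086 to 4383 genes and from 25 to 20 pathway genes. The main fit takes 1 spread per gene over all groups. The median absolute log2 difference between duplicates was 0.183 in WT and 0.105 to 0.147 in the other groups. The fit per experiment raised the ETO and release comparisons to 10604 and 10229 genes, with 38 pathway genes in each. For Released against Control it gave 3662 genes and 10 pathway genes. The replicate block gave 3110 genes and 9 pathway genes there, and 26, 38 and 35 pathway genes in the other comparisons, in the order KO, ETO and release; the labels do not say that the numbers pair libraries. Leaving out each library gave 773 to 2870 genes and 2 to 10 pathway genes for Released against Control (10 without either WT replicate, 2 without Control replicate 2, 3 without either Released replicate). The share of calls that were higher in KO was 64.8%, and 52.6% with TMM, 52.5% with median-of-ratios and 37.0% with total-signal factors; for ETO it was 44.1%, and 57.0% with total signal. For release the shares were 57.4% and 45.8% relative to ETO, and 56.1% and 66.5% relative to Control. Total-signal factors moved the median of all rows from 0.08 to -0.08 for KO and from -0.09 to 0.07 for ETO. For KO minus ETO changes, 18 pathway genes were higher and 14 lower, against 11 and 16 with TMM and 9 and 18 with total signal. The cause of these shifts was not tested. Depth limits Lefty1 and Lefty2 in ETO, which rest on 5 to 11 reads per library.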

Other observations

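The BMP branch, the sister pathway that signals through Smad1, Smad5 and Smad9, changed in both directions in ETO against Control: of 15 tested genes 6 rose and 6 fell (60.8% of all rows called). Bmp4, a ligand, fell in ETO from 165 and 166 normalised counts to 36.6 and 37.4, a log2 difference of -2.13 ± 0.35 (limma adjusted p = 6.87e-05), and stood at 247 and 282 after release. The target Id3, an inhibitor of basic helix-loop-helix factors, fell from 291 and 306 with water to 45.5 and 60.6 with etomoxir, a log2 difference of -2.48 ± 0.36 (adjusted p = 2.31e-05), and stood at 481 and 459 after release. Its relative Id2 went the other way, from 189 and 162 in Control to 567 and 555 in ETO, a rise of 1.68 ± 0.14 (adjusted p = 5.02e-08). In KO against WT Id2 rose by 2.19 ± 0.14 (adjusted p = 9.28e-08), from 47.2 and 41.2 to 190 and 220, and the type I receptor Bmpr1a by 0.77 ± 0.09 (adjusted p = 1.38e-05). Id3 was at 0 in both WT libraries.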
